A study of Drosophila melanogaster with 36 samples.

Results

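The vacuolar proton pump, or V-ATPase, is the rotary enzyme that acidifies lysosomes, endosomes, synaptic vesicles and the lumen of some epithelia. Its genes in Drosophila melanogaster were taken as all genes whose FlyBase symbol starts with Vha followed by a digit or a capital letter, which gave 33 genes. Of these, 32 had an identifier among the 17494 genes counted in heads and muscles, and 33 among the 17612 genes counted in whole flies. Vha44, the only gene of subunit C, was the one without an identifier in the head and muscle counts and was not analysed there. VhaM8.9 carries the symbol ATP6AP2 in the gene names used here and so is not among the 33.

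A cytosolic sector called V1 (subunits A to H) splits ATP, and a membrane sector called V0 (subunits a, c, c'', d and e, with the accessory glycoprotein Ac45) carries the protons. Cells switch the pump off by letting the sectors come apart. Several subunits are encoded by a broadly used gene and by paralogs that the fly uses in particular tissues, and the a subunit, which forms the proton path, has the best known of these in Vha100-1, the form of neurons and synaptic vesicles.

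The pump genes were divided, from general knowledge, into a broad set of 14 and 19 other paralogs. The broad set held Vha68-2 (A, which binds and splits ATP), Vha55 (B, its nucleotide-binding partner), Vha44 (C), Vha36-1 (D) and Vha14-1 (F) of the central stalk, Vha26 (E) and Vha13 (G) of the outer stalks, VhaSFD (H), Vha100-2 (a), Vha16-1 (c) and VhaPPA1-1 (c'') of the proton-carrying ring, VhaAC39-1 (d), VhaM9.7-b (e) and VhaAC45. The other paralogs were Vha68-1 and Vha68-3 (A), Vha36-2 and Vha36-3 (D), Vha14-2 (F), Vha100-1, Vha100-3, Vha100-4 and Vha100-5 (a), Vha16-2, Vha16-3, Vha16-4 and Vha16-5 (c), VhaPPA1-2 (c''), VhaAC39-2 (d), VhaM9.7-a, VhaM9.7-c and VhaM9.7-d (e), and VhaAC45RP, a relative of VhaAC45.

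Poly-A RNA had been read from 36 libraries. Muscles and heads came from wild-type flies (WT, strain 5905 in the series' design) aged 3, 15, 30 and 45 d, in 3 libraries per age and tissue. The whole-fly libraries, all of 3 d and 4 per genotype, came from gcn5c450/c450 flies carrying tub-GAL4 and UAS-HA-Gcn5 (the transgene group, named an overexpression in the labels), from gcn5c450/c450 mutants (named loss-of-function), and from WT. The transgene group thus carries the mutant alleles too, and its tagged Gcn5, a lysine acetyltransferase, is driven through the broadly active tubulin promoter. The labels give neither the sex of the flies nor the number of animals per library, and no source used here says how muscles were dissected. They also do not say whether replicates came from separate groups of animals, so the p-values measure only the spread between these libraries.

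Counts in genes came to 3.00 to 3.68 M (mega) reads per muscle library, 3.18 to 4.36 M per head library and 1.62 to 2.82 M per whole-fly library. Levels are given as CPM, the counts per M counts in genes, on TMM-scaled library sizes, and between genes as CPM per kilobase of exon. Heads, muscles and whole flies were each scaled in a fit of their own. At 45 d all 11 muscle markers tested were higher in muscles than in heads, of which 10 had passed the filter in heads too. All 12 photoreceptor markers were lower, though 8 of these had not passed the filter in muscles. Where a marker passed in a single tissue, its direction was fixed. The muscle libraries also held digestive enzymes of the gut, whose 15 genes summed to 11772 to 12671 CPM in muscles against 93.7 to 156 CPM in heads, each on the scale of its own tissue's fit. Neuron markers summed to 1388 to 1632 CPM in muscles against 6014 to 6063 CPM in heads. In whole flies Gcn5 averaged 2968 ± 166 CPM in the transgene group, 36.8 ± 0.559 CPM in the mutants and 35.9 ± 7.10 CPM in WT (SD, n = 4 each), so its transcript level sets the transgene group apart but does not tell mutants from WT.

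The library of muscle replicate 3 at 3 d stood apart from the other 3 d muscle libraries. Its level relative to the mean of replicates 1 and 2 fell with exon length, with a Spearman rho across genes of -0.87 over the 20 pump genes tested and -0.83 over 8727 genes, against -0.04 and -0.0042 for replicate 2 over replicate 1. Vha14-1, with 659 bases of exon, was higher by a log2 ratio of 1.32 there, and Vha55, with 2786 bases, was at -0.86. Mhc, the myosin heavy chain gene, stood at 2090 CPM in that library against 9596 and 15033 CPM in replicates 1 and 2. Counts of changed genes in muscles that use 3 d libraries are therefore given with and without it.

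The broad set was read in muscles, heads and whole flies, while most other paralogs reached 1 CPM only in whole flies. A mean of 1 CPM was reached by 13 of 13 broad genes with an identifier in muscles, 13 of 13 in heads and 14 of 14 in whole flies. Among the other paralogs it was reached by 7 of 19 in muscles, 6 of 19 in heads and 18 of 19 in whole flies. The 6 of heads were Vha68-1, Vha100-1, Vha36-3, VhaM9.7-a, VhaM9.7-c and VhaAC45RP, and muscles added Vha100-5, which ran from 11.1 to 21.9 CPM with a median of 13.3 CPM over 12 muscle libraries.

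**Figure D1:**
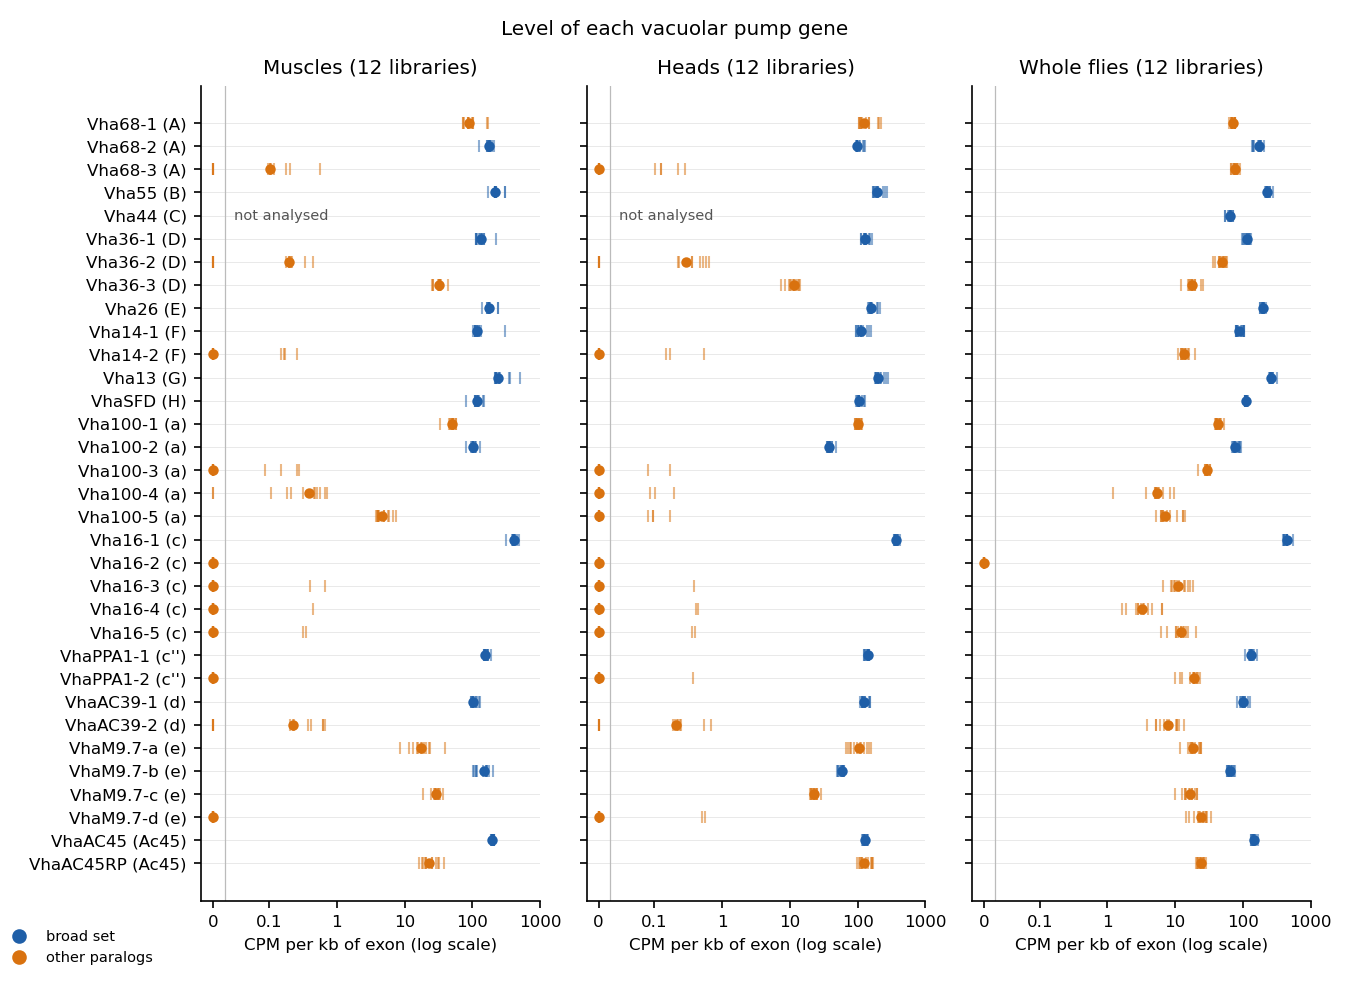
Level of each of the 33 pump genes in muscles, heads and whole flies, as CPM per kb of exon on a log scale. Ticks are the 12 libraries and dots their median, blue for the broad set and orange for the other paralogs, with the subunit in brackets and values of 0 left of the grey line. Most orange genes sit near 0 in muscles and heads, and 18 of 19 are read in whole flies.

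The paralogs that were read in whole flies but averaged under 1 CPM in muscles and in heads covered 8 subunits. Vha68-3 (A) was the most abundant of them, with 160, 188 and 219 CPM as the lowest, median and highest of 12 whole-fly libraries, against 8 counts in all 12 head libraries together and 13 counts in all 12 muscle libraries. Vha100-3 (a) ran from 64.7 to 96.4 CPM in whole flies, and Vha36-2 (D) from 47.2 to 74.6 CPM. Vha14-2, Vha100-4, VhaPPA1-2, VhaM9.7-d, VhaAC39-2, Vha16-5, Vha16-3 and Vha16-4 followed with medians between 1.82 and 22.5 CPM. Vha16-2, whose exons share 84.5% of their length with an antisense RNA gene, had 0 counts in all 36 libraries. Whole flies were read in another layout, so their levels are not compared with those of heads and muscles by a test.

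Within a tissue Vha16-1 led, the gene of the c subunit, of which the pump holds several copies. At 45 d the levels per kb in muscles were 400 ± 10.5 for Vha16-1, 234 ± 20.5 for Vha13 and 219 ± 5.20 for Vha55 (CPM per kb, SD, n = 3). All 13 broad genes measured in muscles stood above all other paralogs at that age, the lowest being Vha100-2 at 103 and the highest paralog Vha68-1 at 73.5 CPM per kb. At 3 d this did not hold in muscles. Vha68-1 (145) then stood above VhaM9.7-b (137), VhaSFD (125), VhaAC39-1 (124) and Vha100-2 (107 CPM per kb). In heads the order was mixed, since Vha68-1 (108), VhaAC45RP (105), Vha100-1 (97.3) and VhaM9.7-a (74.9) all stood above the broad genes VhaM9.7-b (60.8) and Vha100-2 (43.7 CPM per kb) at 45 d. Vha100-1 and VhaSFD (101 ± 3.46) differed by less than their spread there. In WT whole flies Vha16-1 was again first at 472 CPM per kb, and Vha68-3 at 74.8 stood beside Vha68-1 at 68.3.

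Muscles differed from heads at 45 d in most pump genes, and the broad set was higher throughout. Of 20 genes tested 16 were higher in muscles and 3 lower, where 24.3% of all genes tested were higher and 24.5% lower by edgeR's quasi-likelihood test. The median log2 difference was 0.68 over the pump genes and 0.04 over all genes. Vha100-5 passed the filter on low counts through muscles alone, so its direction was fixed, and over the other 19 the counts were 15 higher and 3 lower with a median of 0.67. All 13 broad genes were among the higher ones, from 0.24 for VhaAC39-1 to 1.81 for VhaM9.7-b. VhaAC39-1 was at the edge, with an adjusted p of 0.0498, against 0.0527 under RLE scaling, and it did not pass without any 1 of the 6 libraries compared. With library sizes alone the median of all genes was -0.15, and 12 pump genes were higher and 3 lower, with Vha16-1, Vha26, Vha36-1 and VhaAC39-1 no longer past the threshold. The shares of all genes given above belong to the TMM-scaled fit, and none is given for library sizes alone. VhaM9.7-b had 196, 245 and 229 CPM in muscles, against 61.0, 64.6 and 65.0 CPM in heads, and Vha68-2 had 612, 578 and 666 CPM in muscles, against 290, 304 and 293 CPM in heads. Both genes were well apart between the tissues. The CPM by library that set muscles against heads are on the scale of a joint fit of both tissues. The same 45 d libraries therefore have other CPM in the age comparisons, which use the fit of each tissue.

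Among the a subunit genes the tissues differed in opposite directions. Vha100-2 had 380, 361 and 398 CPM in muscles, against 117, 118 and 128 CPM in heads. The muscle libraries all lay above the head libraries, with a log2 difference of 1.65 ± 0.13 (SE) and an adjusted p of 4.12e-10. Vha100-1, the neuronal form, had 204, 218 and 197 CPM in muscles, against 277, 281 and 267 CPM in heads. Here the head libraries were the higher ones without overlap (-0.42 ± 0.13, adjusted p = 0.0127), and without muscle replicate 3 at 45 d the adjusted p was 0.0531. Vha100-5 had 19.6, 22.2 and 13.4 CPM in muscles, against 0.432, 0.202 and 0 CPM in heads, which rest on so few counts that no fold is given. Vha100-5 shares 18.1% of its exon length with an antisense RNA gene on the other strand, and the strand setting of these counts is not given in the sources used here.

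Both paralogs that were lowest in muscles relative to heads belong to small or accessory membrane parts. VhaAC45RP had 38.9, 35.6 and 31.5 CPM in muscles, against 144, 158 and 150 CPM in heads (-2.09 ± 0.12, adjusted p = 2.23e-12). VhaM9.7-a had 10.6, 14.7 and 7.01 CPM in muscles, against 41.3, 48.9 and 47.0 CPM in heads (-2.08 ± 0.21, adjusted p = 1.47e-08). In neither gene did the tissues overlap, and their broad partners went the other way, VhaAC45 by 0.99 and VhaM9.7-b by 1.81. Vha36-3, a D subunit paralog, was among the genes that were higher in muscles, with 46.9, 47.2 and 50.3 CPM there, against 14.9, 12.5 and 13.2 CPM in heads (1.83). VhaM9.7-c was higher by 0.77, with 27.0, 30.6 and 28.0 CPM in muscles, against 14.9, 17.2 and 18.0 CPM in heads. Vha68-1 had 223, 230 and 221 CPM in muscles, against 247, 259 and 239 CPM in heads, and the difference of -0.15 had an adjusted p of 0.407. Of the neuron markers 11 of 13 were lower in muscles and all 12 gut enzymes tested higher, of which 6 had passed the filter in heads too and the rest had not, so that their direction was fixed. In such bulk samples fewer cells of a type and less RNA per cell cannot be told apart. The part of either cell type in these differences was not tested.

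With age, most pump genes tested were lower in heads, while Vha68-2 and Vha100-2 were higher. At 45 d against 3 d, 11 of 19 genes tested were lower and 2 higher, where 18.2% of all genes tested were lower and 17.5% higher. The median log2 change was -0.26 over the pump genes and 0.01 over all genes. The fall involved 7 of 13 broad genes and 4 of the 6 other paralogs tested. Of 32 genes with an identifier 19 had passed the filter on low counts, so these counts describe the genes that heads use.

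The largest changes were those of 3 other paralogs. Vha68-1 had 601, 552 and 534 CPM at 3 d, 351, 395 and 393 CPM at 15 d, 310, 302 and 292 CPM at 30 d, and 285, 298 and 284 CPM at 45 d. All later libraries lay below the 3 d libraries, and most of the difference was present by 15 d. At 45 d it averaged 289 ± 7.73 CPM, against 562 ± 34.5 CPM at 3 d (SD, n = 3 each), a log2 change of -0.96 ± 0.073 with an adjusted p of 1.39e-07. VhaM9.7-a, an e subunit gene, had 104, 112 and 97.4 CPM at 3 d, 80.8, 76.9 and 89.6 CPM at 15 d, 70.1, 61.7 and 52.0 CPM at 30 d, and 47.6, 56.3 and 55.7 CPM at 45 d. It averaged 53.2 ± 4.85 CPM at 45 d, against 105 ± 7.48 CPM at 3 d (-0.98 ± 0.11, adjusted p = 3.65e-06). VhaAC45RP had 268, 286 and 273 CPM at 3 d, 225, 262 and 240 CPM at 15 d, 196, 193 and 190 CPM at 30 d, and 166, 181 and 177 CPM at 45 d. It averaged 175 ± 7.85 CPM at 45 d, against 276 ± 8.91 CPM at 3 d (-0.66 ± 0.073, adjusted p = 4.33e-06). The mean of each gene was lower at every later age, and neither overlapped between 45 d and 3 d.

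Vha68-2, which encodes the same subunit as Vha68-1, had 268, 273 and 259 CPM at 3 d, 293, 271 and 266 CPM at 15 d, 297, 269 and 271 CPM at 30 d, and 334, 350 and 348 CPM at 45 d. Only the 45 d libraries stood above the rest, and the change against 3 d was 0.37 ± 0.070 (adjusted p = 0.000626) and against 15 d 0.31 (adjusted p = 0.00891, or 0.0568 without head replicate 3 at 15 d). Vha100-2 had 135, 136 and 152 CPM at 45 d, against 120, 119 and 116 CPM at 3 d, and rose by 0.25 ± 0.074 (adjusted p = 0.0124). Without head replicate 3 at 45 d, the highest of these libraries, the adjusted p was 0.0554. At 15 d it had 124, 115 and 122 CPM and at 30 d 127, 117 and 126 CPM, which overlapped the 3 d libraries. Vha100-1 had 320, 324 and 316 CPM at 45 d, against 382, 372 and 371 CPM at 3 d, and fell without overlap (-0.23 ± 0.064, adjusted p = 0.0105), a call that was lost with library sizes alone (-0.10, adjusted p = 0.271), with no filter on low counts (0.0715) and with only the groups compared (0.0502). Its libraries had 340, 343 and 347 CPM at 15 d and 327, 305 and 298 CPM at 30 d. The remaining a subunit genes were nearly unread in heads, with 3 counts for Vha100-3, 4 for Vha100-4 and 5 for Vha100-5 over all 12 libraries.

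**Figure D2:**
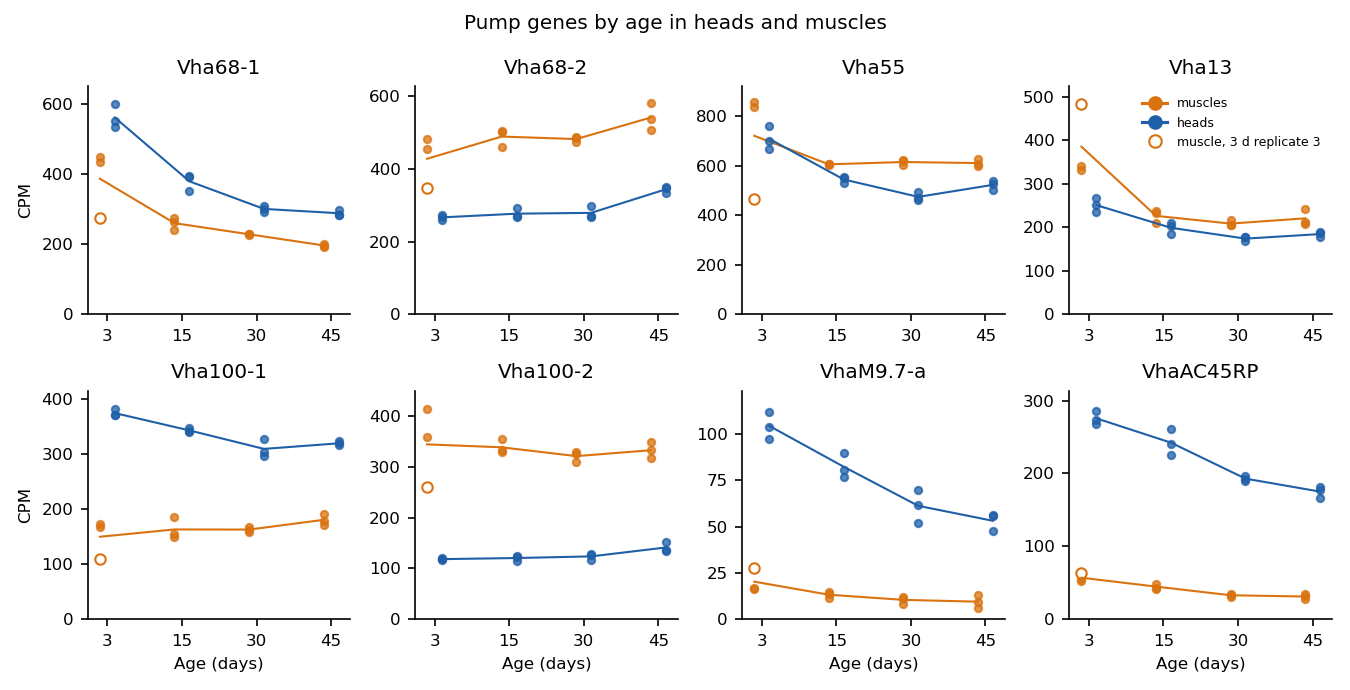
CPM of 8 pump genes at 3, 15, 30 and 45 d in muscles (orange) and heads (blue), with a point per library and lines through the means of 3. The open point is muscle replicate 3 at 3 d. Vha68-1 goes down with age in both tissues, and Vha68-2 has its highest mean at 45 d, on TMM-scaled libraries.

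Genes of the stalks and of subunit B were among the broad genes that fell in heads. Vha14-1 of the central stalk had 62.5, 67.4 and 70.1 CPM at 45 d, against 91.2, 104 and 96.2 CPM at 3 d. Vha55 averaged 523 ± 19.2 CPM at 45 d, against 709 ± 46.3 CPM at 3 d (-0.44, adjusted p = 0.000131), and the lowest age was 30 d with 492, 468 and 463 CPM. Vha13 (-0.44), Vha26 (-0.37) and Vha14-1 (-0.54) of the stalks fell with adjusted p of 0.000189, 0.000441 and 9.26e-05, and none of these overlapped between 45 d and 3 d. VhaAC39-1 (-0.34), VhaSFD (-0.29) and Vha36-1 (-0.26) also fell, and the last of these did not pass without head replicate 2 at 3 d (adjusted p = 0.0988) or head replicate 2 at 45 d (0.056). With library sizes alone neither Vha36-1 (adjusted p = 0.243) nor VhaSFD (0.0606) passed. The ring subunits did not pass, with -0.06 for Vha16-1 and -0.13 for VhaPPA1-1, and neither did VhaAC45 (0.13), VhaM9.7-b (-0.01), VhaM9.7-c (-0.11) or Vha36-3 (0.05). VhaPPA1-1 did not overlap between 45 d and 3 d, although it did not pass.

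The earlier ages showed when these genes moved. At 15 d against 3 d, 9 pump genes were lower and 0 higher, where 7.85% and 5.0% of all genes were. Vha68-1 (-0.57, adjusted p = 0.000139), Vha55 (-0.38), Vha14-1 (-0.35), Vha26 (-0.34), VhaM9.7-a (-0.34) and Vha13 (-0.33) led them. The count of lower genes was 5 without head replicate 2 at 3 d and also without head replicate 2 at 15 d, and VhaM9.7-a did not pass without any of 4 of the 6 libraries. At an unadjusted p under 0.05, 0 were higher at 15 d or at 30 d, and DESeq2 called 0 higher at either. At 30 d against 3 d, 13 were lower and 0 higher (16.6% and 14.7% of all genes), now with VhaAC45RP (-0.52), Vha100-1 (-0.28), VhaPPA1-1 (-0.22) and Vha16-1 (-0.19). Vha16-1 did not pass without any 1 of the 6 libraries compared. VhaPPA1-1 did not pass without any of 4 of them, with no filter on low counts (0.12) or with library sizes alone (-0.13, adjusted p = 0.202). At 45 d against 15 d, 3 were lower and 1 higher (4.01% and 5.14% of all genes). These were VhaM9.7-a (-0.64, adjusted p = 0.00123), VhaAC45RP (-0.47, adjusted p = 0.000633) and Vha68-1 (-0.40, adjusted p = 0.00249) on the lower side and Vha68-2 on the higher. The comparisons against 3 d share the 3 d libraries.

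Cell type markers moved in heads over the same ages. Neuron markers were lower at 45 d than at 3 d in 11 of 13 genes (median -0.64) and summed to 9590 to 11528 CPM at 3 d, 7532 to 8297 CPM at 15 d, 6493 to 6818 CPM at 30 d and 6014 to 6063 CPM at 45 d. Muscle markers were lower in 9 of 10, and photoreceptor markers were lower in 5 and higher in 2 of 12. The part of cell composition in the changes of the pump genes was not tested.

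In muscles, 4 of 20 pump genes tested were lower at 45 d than at 3 d and 0 higher on TMM-scaled libraries, where 11.1% and 8.21% of all genes were, while 0 were lower with library sizes alone. At an unadjusted p under 0.05, 1 was higher, and DESeq2 called 0 higher. Fitting only the 2 ages compared ended 3 of the 4 calls, those of Vha68-1 (adjusted p = 0.0558), Vha13 (0.0936) and VhaM9.7-a (0.112). These 4 were also among the 11 lower genes of heads, and the tissues share no libraries. The same overlap over all genes is not given here, so it is not known whether the pump genes stand out in it. Vha68-1 had 195, 201 and 193 CPM at 45 d, against 436, 449 and 276 CPM at 3 d, and its log2 change was -0.98 ± 0.18 (adjusted p = 0.00226) with all 3 d libraries and -1.17 ± 0.075 (adjusted p = 1.94e-09) without replicate 3. VhaAC45RP had 34.1, 31.2 and 27.6 CPM at 45 d, against 54.4, 52.3 and 63.7 CPM at 3 d (-0.87 ± 0.15, adjusted p = 0.0013). VhaM9.7-a averaged 9.42 ± 3.37 CPM at 45 d, against 20.2 ± 6.41 CPM at 3 d (-1.09 ± 0.28, adjusted p = 0.0178), and did not pass without muscle replicate 1 (0.0613) or 3 (0.0688) at 45 d. Vha13 had 212, 207 and 243 CPM at 45 d, against 332, 340 and 484 CPM at 3 d (-0.80 ± 0.17, adjusted p = 0.0053). In none of the 4 genes did the ages overlap, but these genes had been picked by the test. The ages did not overlap either in VhaAC39-1 (adjusted p = 0.283) and VhaAC45 (adjusted p = 0.636), which did not pass.

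Among the a subunit genes of muscle, Vha100-2 had 333, 316 and 348 CPM at 45 d, against 359, 413 and 260 CPM at 3 d. Vha100-1 had 179, 191 and 172 CPM at 45 d, against 167, 173 and 110 CPM at 3 d. Vha100-5 had 17.2, 19.4 and 11.7 CPM at 45 d, against 21.9, 14.3 and 12.3 CPM at 3 d. None of these passed with all libraries, and the lowest 3 d library of each was replicate 3. Vha36-3, with 41.1, 41.3 and 44.0 CPM at 45 d against 41.2, 42.4 and 55.8 CPM at 3 d, and VhaM9.7-c, with 23.7, 26.8 and 24.5 CPM at 45 d against 21.1, 22.9 and 31.6 CPM at 3 d, did not pass either.

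Without replicate 3 at 3 d, 10 pump genes were lower and 2 higher at 45 d, where the share of all genes also went up, to 22.5% lower and 21.6% higher. The lower ones then included Vha26 (-0.50), Vha55 (-0.47), VhaAC39-1 (-0.27), VhaSFD (-0.26), Vha16-1 (-0.25) and Vha100-2 (-0.22) beside Vha68-1, VhaM9.7-a (-0.81), VhaAC45RP (-0.78) and Vha13 (-0.61). The higher ones were VhaM9.7-b (0.61, adjusted p = 5.90e-05) and Vha68-2 (0.21, adjusted p = 0.0415). With all libraries Vha68-2 had 536, 506 and 582 CPM at 45 d, against 482, 454 and 348 CPM at 3 d, which did not overlap, but its change of 0.34 had an adjusted p of 0.147. Of the 10 lower genes 8 were also lower in heads (8 of 11 there), and Vha68-2 was higher in both (1 of 2 in each tissue). Here too the overlap over all genes is not given.

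**Figure D3:**
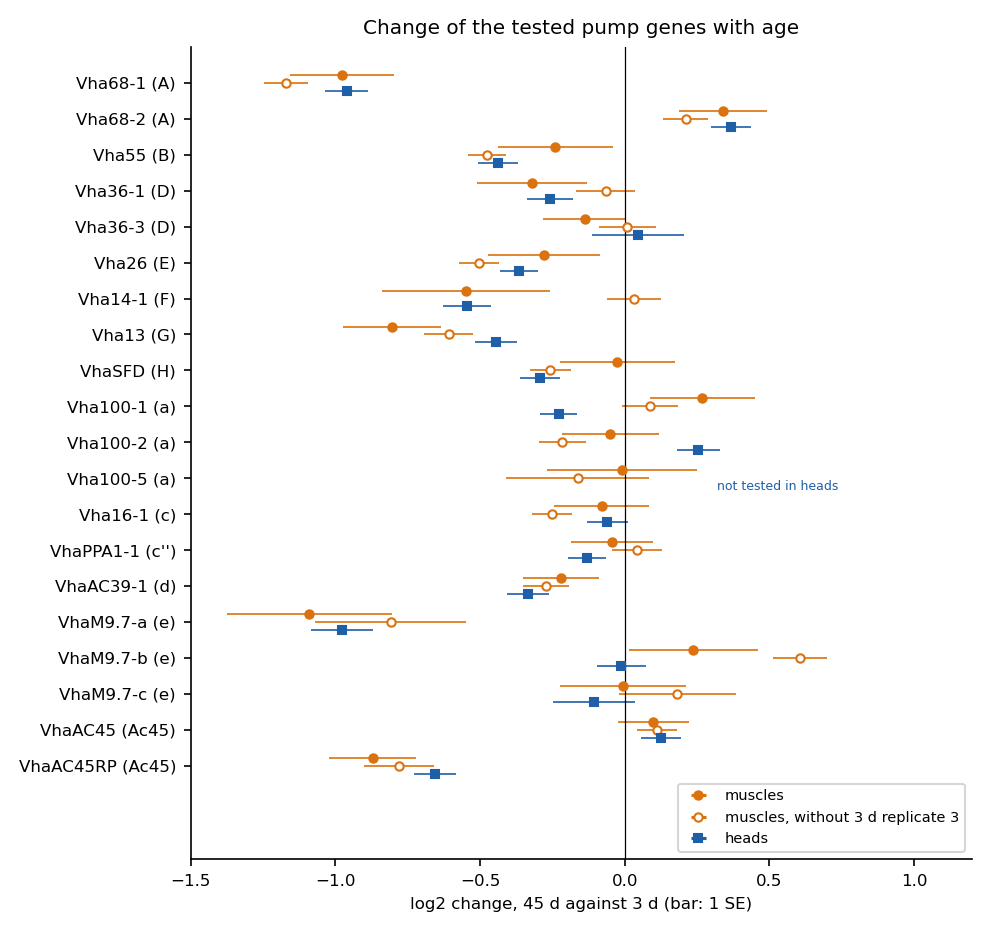
Log2 change at 45 d against 3 d of the 20 pump genes tested in muscles (orange, open symbols without replicate 3 at 3 d) and the 19 tested in heads (blue squares), with bars of 1 SE. Vha68-1, VhaM9.7-a, VhaAC45RP and Vha13 lie left of 0 in all 3 sets with TMM scaling, though Vha13 and VhaAC45RP do not in muscles with library sizes alone, and Vha68-2 lies right of 0.

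Scaling bears on the muscle directions. With library sizes alone the median of all genes at 45 d against 3 d moved to 0.89 in muscles, against 0.01 with TMM factors. Then 15 pump genes were higher and 0 lower, a count given without the share of all genes called. Under that scaling Vha13 (0.10) and VhaAC45RP (0.02) changed sign and neither Vha68-1 (-0.11, adjusted p = 0.631) nor VhaM9.7-a (-0.19, adjusted p = 0.518) passed, so the muscle changes are changes relative to the typical gene. Of all genes called in muscles 42.6% were higher with TMM factors and 94.3% with library sizes alone, and in heads 48.9% and 69.0%. In heads library sizes alone moved the median of all genes to 0.13 and left 8 pump genes lower and 3 higher, again without the share of all genes called. VhaAC45 (0.25, adjusted p = 0.0145) was then among the higher ones. Vha36-1 (-0.13, adjusted p = 0.243), VhaSFD (-0.17, adjusted p = 0.0606) and Vha100-1 no longer passed. Muscle markers fell over this interval in 10 of 11 genes (median -2.34), summing to 9949 to 10431 CPM at 45 d, against 35617 to 68220 CPM at 3 d, and neuron markers fell in 3 of 13. Without replicate 3 at 3 d muscle markers fell in 11 of 11 and neuron markers in 12 of 13. Their part in the muscle results was not tested.

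The intermediate ages of muscle showed 1 lower gene at 15 d (Vha13, -0.77, adjusted p = 0.0134) and 4 at 30 d (Vha13, VhaM9.7-a, VhaAC45RP and Vha68-1), with 0 higher at either, where 6.05% and 9.0% of all genes were lower and 2.03% and 5.24% higher. Without replicate 3 at 3 d these counts were 9 lower at 15 d (15.2% of all genes), and 9 lower and 1 higher at 30 d (19.6% and 17.6% of all genes). With library sizes alone 10 were higher and 0 lower at 15 d, and 13 higher and 0 lower at 30 d. The share of all genes called under that scaling is not given here, so these counts are not a result about the pump. Fitting only the 2 ages compared left 0 lower at either age, and Vha13 had an adjusted p of 0.204 at 15 d. Without muscle replicate 1 or 3 at 15 d, Vha13 did not pass at that age, and at 30 d neither VhaM9.7-a nor Vha68-1 passed without any 1 of the 30 d libraries, nor VhaM9.7-a without replicate 3 at 3 d. At an unadjusted p under 0.05, 0 were higher at either age, and DESeq2 called 0 higher at either, 4 lower at 15 d and 5 lower at 30 d. At 45 d against 15 d, which leaves the 3 d libraries out of the contrast, edgeR called 0 higher and 0 lower (0.925% and 0.767% of all genes), with 1 higher and 2 lower at an unadjusted p under 0.05 and 0 higher and 1 lower by DESeq2. Vha68-1 had 195, 201 and 193 CPM at 45 d, against 241, 265 and 275 CPM at 15 d, and its change of -0.41 had an adjusted p of 0.417. Fitting these 2 ages alone called 2 lower, Vha68-1 (-0.39, adjusted p = 0.00456) and VhaAC45RP (-0.51, adjusted p = 0.00908), and 3 higher, VhaM9.7-b (0.49, adjusted p = 0.003), Vha36-3 (0.35, adjusted p = 0.0212) and Vha36-1 (0.25, adjusted p = 0.0437). In that fit the spread of the 3 d libraries does not enter. The shares of all genes given above belong to the fit of all ages. The share that the fit of these 2 ages called is not given here, so its counts cannot be set against it.

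The age changes of muscles and heads were compared directly in a fit of both tissues. For 3 to 45 d, 0 of 20 pump genes passed in either direction (2.02% of all genes were higher and 4.77% lower), with 1 at an unadjusted p under 0.05 and 1 by DESeq2. With library sizes alone 17 were higher and 0 lower, but the median of all genes then moved to 0.73. The share of all genes called under that scaling is not given here. The gene at an unadjusted p under 0.05 was Vha100-1, whose log2 change was 0.56 higher in muscles than in heads (adjusted p = 0.085), and for Vha68-1 the difference was 0.04 ± 0.19. Without replicate 3 at 3 d (5.23% of all genes higher and 9.24% lower), the change in muscles lay above that of heads for VhaM9.7-b (0.66, adjusted p = 0.000392), Vha14-1 (0.62, adjusted p = 0.000568) and Vha100-1 (0.36, adjusted p = 0.0304), and lay below that of heads for Vha100-2 (-0.43, adjusted p = 0.00589). For 15 to 45 d, 0 passed in either direction (0.0315% and 0.136% of all genes), with 0 at an unadjusted p under 0.05 and 0 by DESeq2.

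Shares within a subunit compare paralogs inside a library, so they do not depend on the scaling between libraries. Vha68-1 and Vha68-2 lie on chromosome arm 2L (FlyBase r6.36), at 13000770 to 13004107 on the minus strand and 12974322 to 12978607 on the plus strand, with Vha68-3 starting 178 bases after Vha68-2. In heads Vha68-1 made up 69.8, 67.6 and 68.0% of the A subunit's CPM per kb at 3 d, between 55.3 and 60.3% at 15 d, 51.7, 53.6 and 52.6% at 30 d, and 46.8, 46.7 and 45.6% at 45 d. The libraries of each age lay below those of every younger age, and Vha68-2 took up the rest, ending at 53.6% on average. In muscles the share of Vha68-1 was 48.3, 50.4 and 45.0% at 3 d, 33.1, 35.1 and 38.1% at 15 d, 33.1, 32.8 and 32.5% at 30 d, and 27.3, 29.0 and 25.5% at 45 d. Only the ages of 15 and 30 d overlapped, and the muscle library that stands apart, with 45.0%, lay closer to the other 3 d libraries than to any later one.

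**Figure D4:**
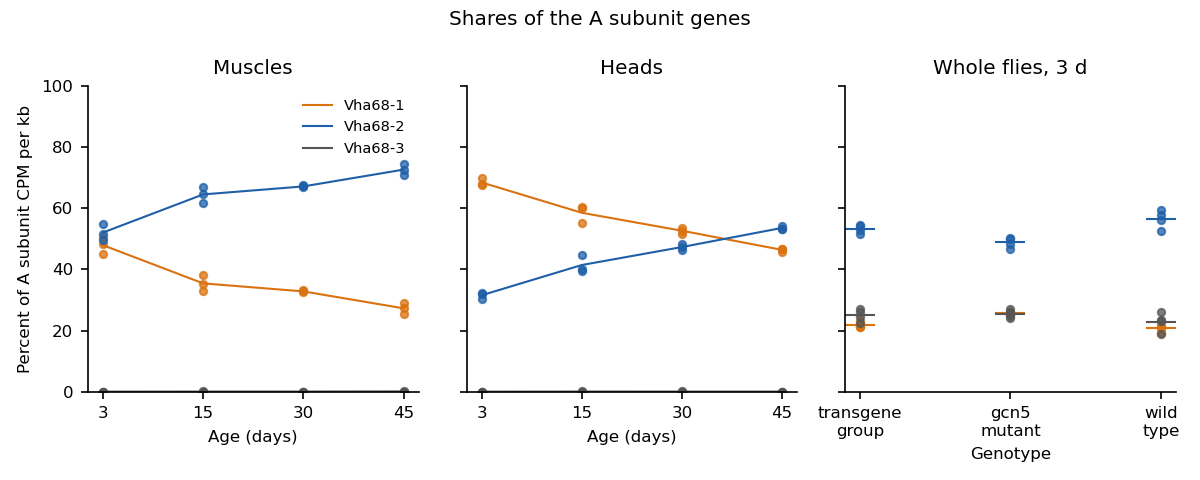
Percent of the A subunit's summed CPM per kb that each A gene held, by age in muscles and heads and by genotype in whole flies, with a point per library and lines or dashes at the means. The mean share of Vha68-1 is 27.3% at 45 d against 47.9% at 3 d in muscles, and 46.4% at 45 d against 68.5% at 3 d in heads, and Vha68-3 holds 22.8 to 25.5% on average in whole flies.

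The mean shares of VhaM9.7-a in subunit e and of VhaAC45RP in Ac45 were likewise lower at every later age in both tissues, and that of Vha100-1 in subunit a was so in heads but not in muscles. Among e subunit genes VhaM9.7-a held 63.1, 60.1, 53.3 and 47.1% on average at 3, 15, 30 and 45 d in heads, and 14.8, 11.5, 7.18 and 6.48% in muscles. VhaM9.7-c, another e paralog, instead held 10.6, 11.8, 13.1 and 14.4% in heads, higher at every later age, and 15.7, 16.8, 14.9 and 14.5% in muscles. VhaAC45RP held 56.4, 53.5, 48.4 and 43.0% of the Ac45 pair in heads, and 14.9, 12.1, 8.9 and 8.18% in muscles. Vha100-1 held 75.6, 73.6, 71.1 and 68.9% of the a subunit in heads, but 28.8, 31.1, 32.2 and 33.5% in muscles. Vha36-3 did not follow, with 7.11, 6.41, 9.06 and 8.54% of subunit D in heads and 18.0, 18.4, 19.9 and 19.6% in muscles. Summed over the pump, the other paralogs held 17.8, 18.6 and 18.5% of the CPM per kb in heads at 45 d, against 23.6, 23.8 and 23.7% at 3 d. In muscles they held 9.02, 9.49 and 8.23% at 45 d, against 11.1, 11.4 and 10.1% at 3 d. The groups did not overlap in either tissue.

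In whole flies the gcn5 mutant differed from WT in a minority of pump genes, most of them lower. Of 31 tested 7 were lower and 1 higher, where 8.82% of all genes were lower and 6.37% higher, and the median log2 change was -0.06. Vha68-2 had 400, 385, 394 and 373 CPM in mutants, against 457, 573, 509 and 513 CPM in WT. The genotypes did not overlap, and the change was -0.40 ± 0.072 (adjusted p = 9.72e-05). Vha100-5 had 21.9, 24.5, 18.2 and 15.4 CPM in mutants, against 31.4, 40.4, 37.5 and 38.2 CPM in WT, also without overlap (-0.89 ± 0.16, adjusted p = 0.000139). Vha100-4 had 13.98, 3.30, 13.8 and 10.2 CPM in mutants, against 14.1, 26.3, 22.8 and 15.0 CPM in WT (-0.93 ± 0.27, adjusted p = 0.0169). Here the groups only just parted, and the call was lost without mutant replicate 2 (0.0852) or WT replicate 2 (0.09).

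The other lower genes were Vha16-1 (-0.24, adjusted p = 0.0158), Vha44 (-0.23, adjusted p = 0.0318), Vha55 (-0.21, adjusted p = 0.0377) and VhaAC39-1 (-0.25, adjusted p = 0.0409). Vha44 had 269, 248, 220 and 217 CPM in mutants, against 272, 270, 287 and 291 CPM in WT, and lost the call without replicate 3 or 4 of either genotype. VhaAC39-1 lost it without replicate 2 or 4 of WT or replicate 3 or 4 of the mutants, and Vha55, whose groups overlapped, without any of 6 of the 8 libraries. The count of lower genes was 4 without WT replicate 2, WT replicate 4, mutant replicate 3 or mutant replicate 4. VhaAC39-2, the d subunit paralog, was the gene that was higher, with 16.4, 13.2, 12.8 and 6.41 CPM in mutants, against 6.44, 4.69, 7.31 and 8.35 CPM in WT (0.83 ± 0.29, adjusted p = 0.0477). The groups overlapped by 1 mutant library, and it passed neither with DESeq2 (0.0602) nor in 6 of the 8 fits that leave out 1 library. Vha68-1 (0.11, adjusted p = 0.408) and Vha68-3 (-0.03, adjusted p = 0.883) did not pass, and the mean share of Vha68-2 in subunit A was 48.9% in mutants and 56.4% in WT.

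The transgene group differed from the mutants in 2 pump genes, both higher, where 5.27% of all genes were higher and 4.11% lower. At an unadjusted p under 0.05, 0 were lower, and DESeq2 called 0 lower. Vha68-2 had 492, 494, 474 and 471 CPM in the transgene group, above all mutant libraries given above (0.32 ± 0.072, adjusted p = 0.00314). Vha100-2 had 290, 299, 286 and 267 CPM in the transgene group, against 248, 236, 244 and 221 CPM in mutants and 233, 286, 240 and 250 CPM in WT (0.27 ± 0.076 against mutants, adjusted p = 0.019), and 1 gene was left without transgene replicate 1, transgene replicate 2 or mutant replicate 4. Vha100-5, with 19.0, 19.5, 18.1 and 18.5 CPM in the transgene group, lay among the mutant values (-0.08, adjusted p = 0.847). Vha100-1 ran from 129 to 143 CPM in the transgene group, from 131 to 157 CPM in mutants and from 137 to 175 CPM in WT, and Vha100-3 from 79.9 to 96.4, from 81.5 to 89.2 and from 64.7 to 95.0 CPM. Both overlapped between all genotypes.

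Against WT the transgene group was lower in 2 pump genes and higher in 0, where 8.23% of all genes were lower and 7.60% higher. At an unadjusted p under 0.05, 3 were higher, and DESeq2 called 0 higher. Vha100-5 averaged 18.8 ± 0.618 CPM in the transgene group, against 36.9 ± 3.85 CPM in WT (-0.97 ± 0.16, adjusted p = 3.12e-05). VhaAC39-1 averaged 172 ± 9.39 CPM in the transgene group, against 205 ± 16.6 CPM in WT (-0.26, adjusted p = 0.03), and did not pass without transgene replicate 3 or 4 or WT replicate 2 or 4. Vha68-2 averaged 482 ± 11.8 CPM in the transgene group, against 513 ± 47.3 CPM in WT, with overlap (-0.09, adjusted p = 0.451). VhaAC39-2 (0.79, adjusted p = 0.0503) lay just outside the threshold. The 3 comparisons share libraries, so their counts are not independent of each other.

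**Figure D5:**
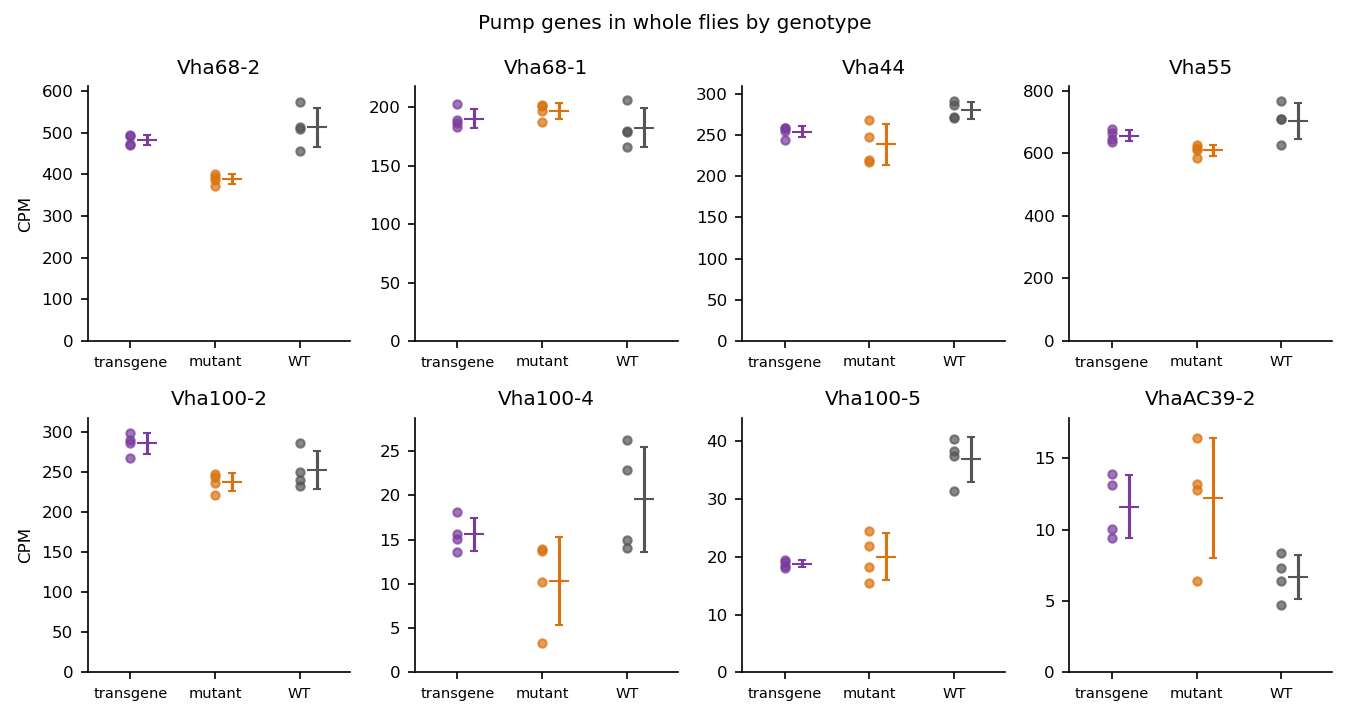
CPM of 8 pump genes in whole flies of 3 d, with a point per library for the transgene group, the gcn5 mutants and WT, and a bar at the mean ± SD of 4. Vha68-2 is lowest in mutants, and Vha100-5 is low in both the transgene group and the mutants, against 31.4 to 40.4 CPM in WT.

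Markers of tissues that could bear on these genes differed between the genotypes. Gut enzymes were lower in 12 of 14 genes in mutants, summing to 3371 to 6333 CPM, against 9547 to 12495 CPM in WT, and lower in 12 of 14 in the transgene group, summing to 3852 to 5667 CPM. Markers of Malpighian tubules, an epithelium rich in the pump, were higher in 6 of 10 in mutants (477 to 603 CPM, against 282 to 362 CPM in WT) and in 6 of 10 in the transgene group (468 to 559 CPM). Accessory gland genes were higher in 6 of 6 in both. Hemocyte genes were lower in 6 of 6 in mutants and in 2 of 6 in the transgene group. Testis markers were higher in 2 of 16 tested in mutants and in 6 of 16 in the transgene group. Of all genes 8.82% were lower and 6.37% higher in mutants than in WT. In the transgene group against WT the shares were 8.23% and 7.60%. Whether these markers bear on the low Vha100-5 of both genotypes was not tested.

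Genes of related function did not all move with the pump. Their counts stand against 18.2% of all genes lower and 17.5% higher in heads, 11.1% and 8.21% in muscles, and 22.5% and 21.6% in muscles without replicate 3 at 3 d, all at 45 d against 3 d. The mitochondrial ATP synthase, a rotary enzyme related to the pump, fell in 13 of 13 genes of heads at 45 d against 3 d (median -0.64), with sun at -1.04, and in 13 of 13 of muscles (median -2.60, and 13 of 13 without replicate 3), with ATPsynC at -3.26. Of 4 tested genes for pump assembly and regulation, mtd (-0.51, adjusted p = 0.000137) and Rbcn-3B, a rabconnectin-3 subunit that helps the sectors assemble (-0.21, adjusted p = 0.0394), fell in heads, and in muscles 0 passed, or 2 fell without replicate 3 at 3 d. Mitf, the fly relative of the MITF and TFEB factors that drive lysosomal genes in mammals, was at 0.06 in heads (adjusted p = 0.555). Among lysosomal hydrolases and membrane proteins 7 of 18 rose in heads, with the protease gene cathD at 0.90 and CtsF at 0.39, and 2 fell, with Hexo1 at -0.67. In muscles 3 of 19 rose and 2 fell, with Cln3 at -1.69 and Cln7 at -1.07, where 8.21% of all genes rose and 11.1% fell. Without replicate 3 at 3 d, 8 rose and 2 fell. The Rag GTPases and Ragulator, which signal from the lysosome to TOR, passed in 0 of 6 genes in either tissue, also without replicate 3. The accessory gene ATP6AP2 was at -0.10 in heads (adjusted p = 0.353) and -0.29 in muscles (0.21).

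In whole flies 5 of 13 ATP synthase genes were lower in mutants than in WT (median -0.21), with ATPsynC at -0.42 and blw at -0.36, and 0 were higher, beside 8.82% of all genes lower and 6.37% higher. Of 19 lysosomal genes 4 were lower and 1 higher, with Gba1a, a glucocerebrosidase gene, at -3.34, Hexo1 at -0.67 and LManII at -0.42. The assembly genes and the Rag and Ragulator genes passed in 0 of 4 and 0 of 6. In the transgene group against the mutants 1 ATP synthase gene (ATPsynbeta, 0.34) and 2 lysosomal genes were higher, and mtd was lower (-0.23, adjusted p = 0.049), beside 5.27% and 4.11% of all genes.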

How the data were processed

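The deposited values are counts per gene, of single reads of 100 nt (heads, muscles) or of read pairs of 150 nt (whole flies), layouts per the labels. Per the file headers, featureCounts 2.0.1 counted whole flies on FlyBase r6.36 without strand. Trim Galore 0.6.6, STAR 2.7.6a and DESeq2 are named in the submitters' processing notes, as is featureCounts, yet the head and muscle files close with 5 tallies in the layout of htseq-count. No source used here gives the build or strand setting of those files. Uniquely placed reads were the rule except in some muscle libraries, where the tally of reads without a unique place reached 36.6%. Tallies were excluded. Symbols were found for 99.2% of identifiers in heads and muscles and 99.6% in whole flies. The authors' own comparison tables were not used here.

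The filter filterByExpr (count 10, total 15) kept 9035 genes for heads, 8866 for muscles, 9538 for the joint fit of both and 10723 for whole flies. TMM scaling and edgeR 4.0.16 in R 4.3.3 (quasi-likelihood F-test) were used with 1 mean per group. P-values were adjusted by Benjamini and Hochberg over every gene in a comparison, at a threshold of 0.05, and the test was tried on simulated data first. SE is the log2 change, without its sign, over the square root of F. Lengths are r6.36 exon lengths, and shares are percentages of the CPM per kb of a subunit's genes. As the build of the head and muscle counts is not known, these lengths may not match the exons counted there. Levels per kb and shares in heads and muscles carry that limit. Alternatives were RLE scaling, library size alone, no filter, DESeq2 1.42.0, only the groups compared, a replicate block and leaving out each library. The pump genes, the division into sets and all gene lists were chosen with earlier results of these data known. Libraries are given singly for the largest changes of a comparison, the a subunit and paralogs above 1 CPM. Sequences were not used here.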

Additional observations from a re-analysis of the deposited data

Results flagged for a closer look

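Vha16-1, the main c subunit gene, had 1696 CPM in WT whole-fly replicate 2, far from the 1350, 1384 and 1381 CPM of the other WT libraries. It was the 1 of 96 groups of 4 whole-fly libraries in which the highest or lowest library lay this far from its neighbours by Dixon's criterion, which by chance alone passes in about 5% of groups. Groups of 3 were not examined in this way. Vha68-2 was also highest in that library, at 573 CPM. Without it the log2 change of Vha16-1 in mutants against WT was -0.15 and still past the threshold, against -0.24 with it.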

How the results depend on the processing

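Of 79 called changes of pump genes, RLE scaling kept 78, DESeq2 77, the fit without a filter 74 and the fit of only the groups compared 63 on the same side of the threshold. Library sizes alone kept the fewest of these settings, 54, while 21 no longer passed and 4 had the other sign. Same-numbered libraries did not deviate together, with correlations of -0.217 to 0.14 in heads, of -0.126 to 0.0999 in muscles and of -0.0784 to 0.0303 in whole flies. With a replicate block 74 calls were kept and 0 genes were higher in mutants than in WT. The cause of the changes listed here was not tested.

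With library sizes alone, muscles had 10 genes higher and 0 lower at 15 d, 13 and 0 at 30 d, and 15 and 0 at 45 d, all against 3 d. VhaAC45RP (0.032) and Vha68-1 (0.038) at 30 d and VhaAC45RP (0.021) and Vha13 (0.10) at 45 d then had the other sign in muscles. Under this scaling 17 genes were higher in the interaction from 3 to 45 d, 3 in heads at 45 d against 15 d, 2 in mutants against WT (4 lower) and 2 in the transgene group against WT (1 lower). DESeq2 called 4 lower in muscles at 15 d against 3 d, 1 lower at 45 d against 15 d, 1 higher in the interaction and 0 higher in mutants against WT. Fitting only the groups compared left 0 lower in muscles at 15 d and at 30 d and 1 at 45 d against 3 d, gave 3 higher and 2 lower at 45 d against 15 d, 0 higher and 3 lower in mutants against WT, and 1 higher in the transgene group against WT. No filter also gave 1 higher in the last comparison. The shares of all genes called in these alternative fits are not given here, so the counts show only how far the calls move. Without division by exon length the share of VhaM9.7-b changed by 13.3 points in heads and 6.97 points in muscles, against 12.1 and 9.44 points with it.

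Leaving out 1 library gave 5 to 9 lower in heads at 15 d, 11 to 12 at 30 d, and 10 to 11 lower and 1 to 2 higher at 45 d against 3 d, and 0 to 1 higher at 45 d against 15 d. In muscles it gave 0 to 9 lower at 15 d, 2 to 9 lower and 0 to 1 higher at 30 d, and 3 to 10 lower and 0 to 2 higher at 45 d against 3 d. The interaction from 3 to 45 d had 0 to 3 higher and 0 to 1 lower, and muscles against heads 15 higher and 2 to 3 lower. Mutants against WT had 4 to 6 lower and 0 to 1 higher, the transgene group against mutants 1 to 2 higher, and against WT 1 to 2 lower and 0 to 1 higher. At these depths genes of a few counts per library, such as Vha16-4 and most paralogs in heads, allow no comparison.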
